A study of Mus musculus with 2 samples.

Results

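The 9 genes described here encode the receptors and kinases that carry interferon signals into a cell and the suppressors that shut them off. They are the receptor chains Ifnar1, Ifnar2, Ifngr1 and Ifngr2, the Janus kinases Jak1, Jak2 and Tyk2, and the suppressors Socs1 and Socs3. They were chosen by name, 9 of the 31053 genes in the deposited matrix, and each matched 1 gene identifier. All were followed through 5328 cells in which 200 genes or more were detected and mitochondrial UMIs were 20% or less (unique molecular identifiers, each standing for 1 captured transcript).

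The study sorted single cells from around the cribriform plate, the sieve-like bone above the nose through which olfactory nerves pass, together with olfactory bulb and some nasal mucosa. One pool came from 5 mice with experimental autoimmune encephalomyelitis (EAE, a multiple sclerosis model in which the immune system is turned against myelin) and the other from 5 healthy mice. All mice were 10-week-old wild-type C57BL/6J females, and the sort in both pools aimed at podoplanin-positive, CD31-positive, CD45-negative living cells, that is, at lymphatic endothelium. Barcodes end in suffix 2 or 1, but neither label nor file ties a suffix to the EAE pool. They are called library 2 and library 1 here, and EAE is not set against health. With 1 pooled library on each side there is no replicate and no test. Differences below are between these libraries, and every interval is an exact 95% interval that covers counting error only.

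The labelled cell type went against the data. Of the kept cells, 1714 of 1922 in library 2 (89.2%) and 3085 of 3406 in library 1 (90.6%) were microglia-like, although the gate left out CD45-positive cells. The 7 lymphatic endothelial markers summed to 6.90 CPM in library 2 (CPM, a gene's UMIs scaled to all UMIs of the same cells), with Mmrn1 and Reln at 0 UMIs, and to 28.3 CPM in library 1. The 7 microglia markers summed to 8580 and 14113 CPM. Kept cells held 20282053 UMIs in library 2 and 25766058 in library 1, at medians of 9782.5 and 7334 UMIs per cell, and 7 barcode sequences occurred in both libraries. The libraries also differed in markers of other cells. All 6 monocyte markers were detected in both, at a sum of 75.3 CPM in library 2 and of 11.8 CPM in library 1, and border macrophage markers summed to 116 CPM and 197 CPM. The T or NK cell list summed to 2.37 and 0.349 CPM. The sum of erythroid markers was 0.690 CPM in library 2, where Hba-a2 and Alas2 were at 0, and 274 CPM in library 1. Fibroblast markers had sums of 222 and 19.5 CPM, and sensory neuron markers of 553 and 104 CPM.

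In the textbook account, an interferon brings together the chains of its receptor, and the kinases bound to them phosphorylate STAT proteins that enter the nucleus and switch on target genes. The type I receptor (for interferon-alpha and -beta) joins IFNAR1, which carries TYK2, to IFNAR2, which carries JAK1. The type II receptor (for interferon-gamma) joins IFNGR1, the ligand-binding chain, which carries JAK1, to IFNGR2, which carries JAK2. SOCS1 and SOCS3 are induced by STATs and act back on the pathway. SOCS1 inhibits JAKs at interferon receptors, whereas SOCS3 is best known as the brake on gp130 cytokines such as interleukin-6. Microglia, the resident macrophages of the brain, respond to both types of interferon.

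Set against each other, the libraries differed by at least 1.5-fold for 4 of the 9 genes. Socs1, Tyk2 and Ifnar1 were higher in library 2 and Jak1 was lower. Of 13891 genes with at least 20 UMIs, 23.4% were at least 1.5-fold higher in library 2 and 16.7% at least 1.5-fold lower, so that 3 of 9 and 1 of 9 are not far from the background, and with 9 genes no excess can be read. The median log2 ratio of all these genes was 0.04. Levels are compared for 1 gene across cells and never between genes, since no source used here states the read end or any length bias.

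**Figure D1:**
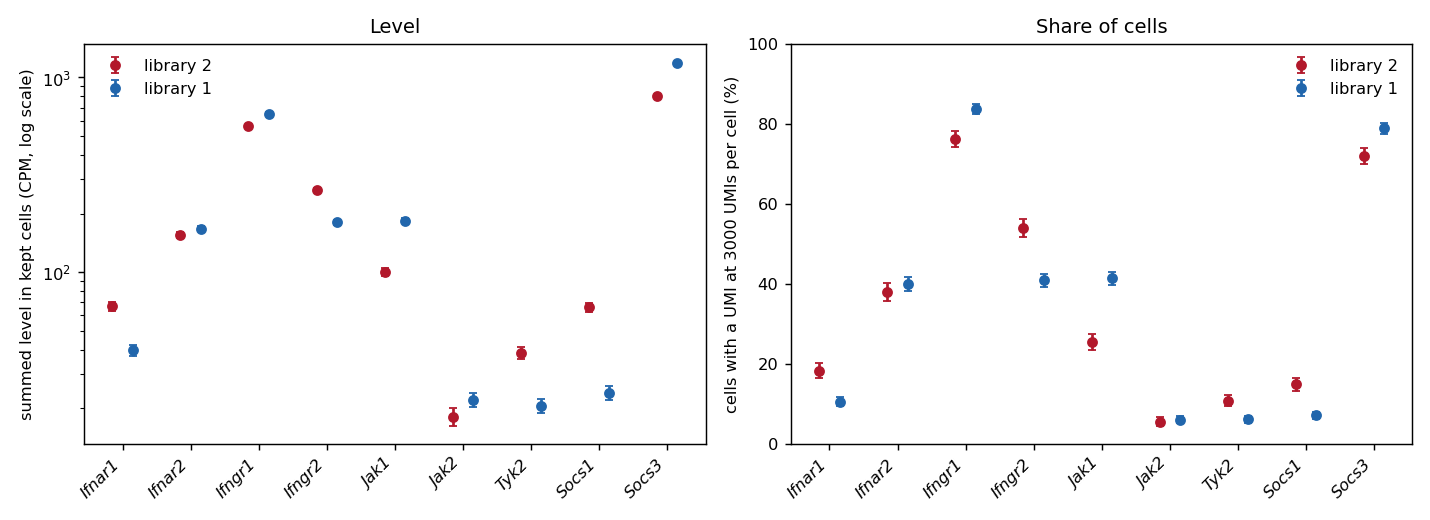
Left, summed level of each gene in kept cells (CPM, log axis) with exact Poisson 95% intervals; right, percent of cells with a UMI after each cell was thinned to 3000 UMIs, with exact binomial 95% intervals. Library 2 is the left and library 1 the right point of each pair. Socs1 lies at 66.0 CPM in library 2 against 24.0 CPM in library 1, and Jak1 at 100.3 against 184 CPM.

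The chains of the type I receptor differed from each other. Ifnar1 (ENSMUSG00000022967) had 1354 UMIs (66.8 CPM) in library 2 and 1024 UMIs (39.7 CPM) in library 1. Its ratio of library 2 over library 1 was 1.68 (1.55 to 1.82). Ifnar2 (ENSMUSG00000022971) had 3166 UMIs (156 CPM) in library 2 and 4311 UMIs (167 CPM) in library 1, a ratio of 0.933 (0.891 to 0.977). The Ifnar2 difference was small enough for the choice of total to turn it, since the ratio was 1.02 with totals that leave out mitochondrial, ribosomal protein and haemoglobin genes. Microglia-like cells alone gave ratios of 1.77 for Ifnar1 and 0.952 for Ifnar2. Deeper cells show a gene in more of them, so shares of cells were also taken after thinning each cell to 3000 UMIs, which left 1861 cells of library 2 and 3196 of library 1 (61 and 210 shallower cells were left out). Ifnar1 then had a UMI in 18.3% and 10.5% of cells, and without thinning in 46.2% and 24.1%. Ifnar2 had one in 37.9% and 40.0% of thinned cells, the opposite order to its unthinned shares of 75.1% and 67.5%, and its thinned intervals overlapped.

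The chains of the type II receptor differed in direction, neither past 1.5-fold. Ifngr1 (ENSMUSG00000020009) had 11366 UMIs (560 CPM) in library 2 and 16812 UMIs (652 CPM) in library 1, a ratio of 0.859 (0.839 to 0.880). A UMI of Ifngr1 was present in 76.4% and 83.8% of thinned cells, and in 93.6% and 94.0% without thinning. Ifngr2 (ENSMUSG00000022965) had 5373 UMIs (265 CPM) in library 2 and 4644 UMIs (180 CPM) in library 1, and its ratio of 1.47 (1.41 to 1.53) lay just inside the threshold. Its thinned shares were 54.1% and 40.9%, and its unthinned ones 87.1% and 67.9%. In microglia-like cells the ratios were 0.872 for Ifngr1 and 1.49 for Ifngr2.

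Among the kinases, Jak1 was lower and Tyk2 higher in library 2. Jak1 (ENSMUSG00000028530), the kinase that both receptor types use, had 2034 UMIs (100.3 CPM) in library 2 and 4738 UMIs (184 CPM) in library 1. It was thus 1.83-fold lower in library 2 (1.74 to 1.93), and between 1.68- and 1.89-fold lower under the 10 other ways of counting tried. Of thinned cells, 25.4% in library 2 and 41.4% in library 1 had a Jak1 UMI. Tyk2 (ENSMUSG00000032175), the partner of IFNAR1, had 778 UMIs (38.4 CPM) in library 2 and 529 UMIs (20.5 CPM) in library 1, a ratio of 1.87 (1.67 to 2.09). Its thinned shares were 10.8% and 6.10%. Jak2 (ENSMUSG00000024789), the partner of IFNGR2, was sparse, at 367 UMIs (18.1 CPM) in library 2 and 569 UMIs (22.1 CPM) in library 1, and its ratio was 0.819 (0.717 to 0.936). Its thinned shares, 5.48% and 5.98%, overlapped within their intervals. Microglia-like cells alone gave ratios of 0.544 for Jak1, 1.94 for Tyk2 and 0.839 for Jak2.

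Over all kept cells Socs1 was higher and Socs3 lower in library 2. Socs1 (ENSMUSG00000038037) had 1339 UMIs (66.0 CPM) in library 2 and 618 UMIs (24.0 CPM) in library 1, a ratio of 2.75 (2.50 to 3.03) and 2.80 in microglia-like cells. Of thinned cells, 14.9% in library 2 and 7.13% in library 1 had a Socs1 UMI. The top 1% of cells held 16.0% of Socs1 UMIs in library 2 and 16.7% in library 1, the largest such share of the 9 genes in each. Ifnar1, with a like number of UMIs in library 2 (1354), had 7.16% of them in the top 1% of cells. In library 1 genes with like numbers came closer to Socs1, with 14.6% for Tyk2 (529 UMIs) and 13.7% for Jak2 (569 UMIs). Socs3 (ENSMUSG00000053113) had 16223 UMIs (799.9 CPM) in library 2 and 30531 UMIs (1185 CPM) in library 1. That is 1.48-fold lower in library 2 (1.45 to 1.51), just inside the threshold, with a UMI in 72.0% and 78.9% of thinned cells.

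The direction of Socs3 depended on which cells were set against each other. The immediate early list holds genes that cells switch on within minutes of a stimulus, and also heat shock and chaperone genes. It took a median of 2.77% of UMIs per cell in library 2 and 7.09% in library 1. Of the 26 genes on that list, 23 were at least 1.5-fold lower in library 2 and none higher. Over all genes with at least 20 UMIs, 16.7% were that much lower. Among cells whose immediate early share lay between 1.57% and 9.10% (1439 and 2439 cells, medians 3.30% and 6.28%), the Socs3 ratio was 0.958. In a narrower range of 3.69% to 5.04%, added after the data had been seen, 394 cells of library 2 had a median share of 4.22% and 425 of library 1 a median of 4.44%. With each library cut into 4 equal bins by this share, the range lay wholly in the lowest bin of library 1, below 5.23%. In library 2 the highest bin began at 3.95%, so low-share cells of library 1 met high-share cells of library 2. In that range Socs3 was 1.498-fold higher in library 2. In the same cells Socs1 had a ratio of 3.28, Jak1 was 1.77-fold lower, and Tyk2, Ifngr2 and Ifnar1 had ratios of 1.53, 1.54 and 1.45. Ifnar1 was thus just short of 1.5-fold there, and Ifngr2 was past it.

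**Figure D2:**
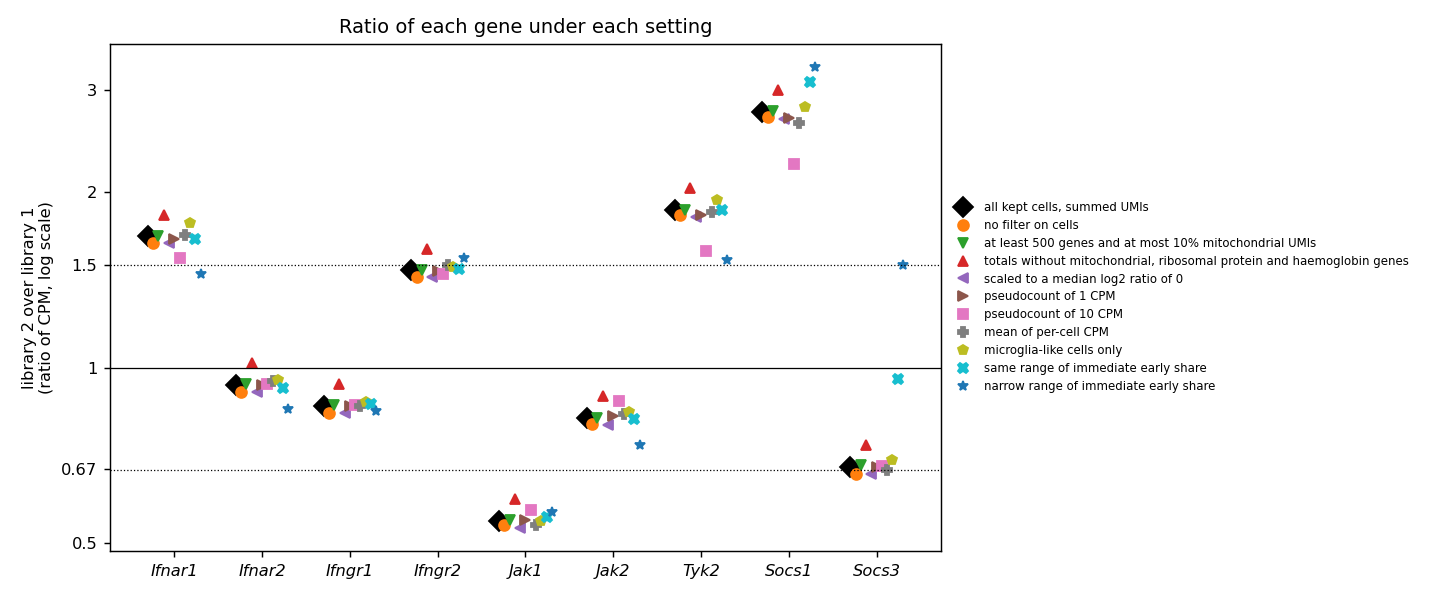
Ratio of library 2 over library 1 (ratio of CPM, log axis) for each gene over all kept cells (black diamond) and under the 10 alternative settings; dotted lines mark 1.5-fold either way. Socs1 stays between 2.24 and 3.28 and Jak1 between 0.530 and 0.594, whereas Socs3 runs from 0.657 to 1.498.

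The DNA just upstream of the 3 genes that were higher in library 2 is shown to set their interferon motifs side by side. Each line gives the 250 bases before the RefSeq start of the gene in GRCm38.p6, read 5′ to 3′ on the gene's strand. The Socs1 window is chr16:10785537-10785786 on the minus strand, that of Ifnar1 chr16:91484965-91485214 on the plus strand and that of Tyk2 chr9:21131276-21131525 on the minus strand. Capitals mark matches to the core of the interferon-stimulated response element (ISRE), written GAAA, any 2 bases, GAAA, which is bound by a complex of STAT proteins with IRF9 and by other IRF proteins.
Socs1: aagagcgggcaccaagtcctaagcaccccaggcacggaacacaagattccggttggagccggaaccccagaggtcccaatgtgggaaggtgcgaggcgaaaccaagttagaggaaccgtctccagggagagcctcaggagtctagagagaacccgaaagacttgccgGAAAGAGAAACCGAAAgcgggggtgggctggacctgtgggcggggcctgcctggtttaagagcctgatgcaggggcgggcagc
Ifnar1: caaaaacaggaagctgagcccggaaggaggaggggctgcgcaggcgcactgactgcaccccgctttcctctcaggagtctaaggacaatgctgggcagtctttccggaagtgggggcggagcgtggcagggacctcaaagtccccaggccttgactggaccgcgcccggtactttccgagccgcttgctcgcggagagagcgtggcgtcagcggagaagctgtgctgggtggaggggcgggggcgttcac
Tyk2: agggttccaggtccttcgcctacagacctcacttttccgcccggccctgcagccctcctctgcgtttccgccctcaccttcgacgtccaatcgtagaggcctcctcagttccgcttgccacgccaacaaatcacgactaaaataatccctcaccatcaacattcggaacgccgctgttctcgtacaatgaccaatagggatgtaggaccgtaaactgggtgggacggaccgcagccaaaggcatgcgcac
Socs1 held a pair of overlapping matches, GAAAGAGAAA at bases -83 to -74 from the start and GAAACCGAAA at -77 to -68, and the windows of Ifnar1 and Tyk2 held none. Both strands were searched. Of 32851 RefSeq windows of this length, 978 (2.98%) held the ISRE core, and Socs1 was the only one of the 9 genes among them. The STAT dimer motif TTCNNNGAA stood in 2306 windows (7.02%), among them those of Ifnar2 at -214 to -206 and Socs3 at -154 to -146. The AP-1 motif TGANTCA, a site of FOS and JUN, stood in 2217 windows (6.75%) and in none of the 9. A match describes letters and not binding, and these windows leave out more distant DNA.

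Outside the receptors, kinases and suppressors, the libraries were far apart in the genes that interferons switch on. All 22 type I targets were at least 1.5-fold higher in library 2, with a median fold of 8.79. Over all genes with at least 20 UMIs, 23.4% were that much higher. Of 22 type II targets, 21 were higher, with a median fold of 13.3, and the exception, Irf1, had a fold of 1.33. The 9 genes had a median fold of 0.933. Zbp1, a sensor of nucleic acids among the type I targets, had 214 CPM in library 2 and 6.91 CPM in library 1, and Ciita, the master regulator of MHC class II among the type II targets, had 38.5 and 0.854 CPM. Per cell, type I and II targets together took a median of 2.05% of UMIs in library 2 and 0.132% in library 1. These target lists were chosen with earlier results of these data known.

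**Figure D3:**
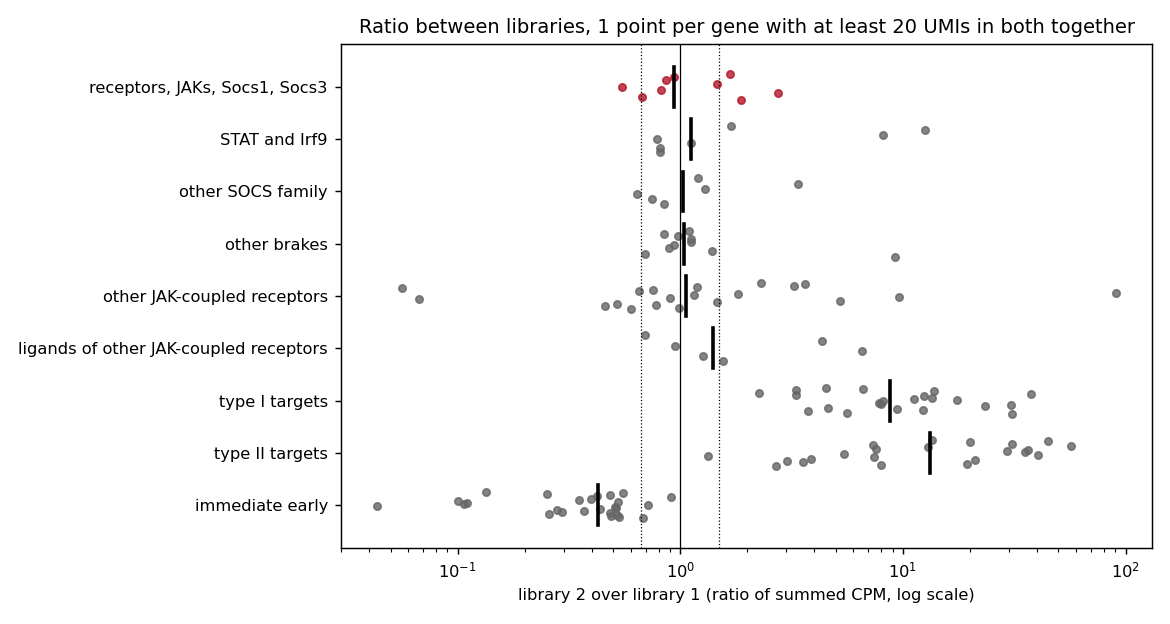
Ratio of library 2 over library 1 (ratio of summed CPM, log axis) for each gene with at least 20 UMIs, in rows by list; black bars are medians and dotted lines mark 1.5-fold either way. The receptors, kinases and suppressors (red) spread around 1 with a median of 0.933, while both target lists lie to the right, with medians of 8.79 and 13.3.

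Downstream of the kinases, 3 of the 7 STAT and Irf9 genes with at least 20 UMIs were higher in library 2 and none lower. Their median fold was 1.12. Over all genes with at least 20 UMIs, 23.4% were higher and 16.7% lower. No excess can be read from this list or from the SOCS family list below, which are short. Stat2, which joins IRF9 after type I interferon, stood at 121 CPM in library 2 and 14.9 CPM in library 1. Stat3, the main STAT of interleukin-6 signals, stood at 96.7 and 123 CPM, within 1.5-fold. Of the 6 other SOCS family genes, 1 was higher, 1 lower and 4 within, with a median fold of 1.02. Socs2, a brake on growth hormone signals, was the higher one at 24.7 and 7.30 CPM, and Socs5 the lower one at 4.34 and 6.79 CPM. Socs6 had 27.3 and 36.4 CPM and Socs7 had 16.2 and 19.1 CPM.

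Of 10 other brakes on the pathway, 1 was higher and 9 were within 1.5-fold, with a median fold of 1.04. Over all genes with at least 20 UMIs, 23.4% were higher and 16.7% lower, and 10 genes are too few to set against these shares. The higher one was Usp18, an ISG15 protease that also blocks the type I receptor at its IFNAR2 chain, at 73.6 CPM in library 2 and 7.96 CPM in library 1 (ratio 9.25). The phosphatase genes Ptpn1 (340 CPM in library 2, 306 CPM in library 1) and Ptpn6 (225 CPM in library 2, 161 CPM in library 1) were within 1.5-fold. Sh2b3, an adaptor that restrains JAK2, had 45.4 CPM in library 2 and 65.6 CPM in library 1.

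Transcripts of the ligands were close to absent. Of 21 interferon genes, 17 had no UMI in either library, where 3 UMIs would make 0.148 CPM in library 2 and 0.116 CPM in library 1. Ifng, the gene of interferon-gamma, had 1 UMI in library 2 and 0 in library 1. Ifnb1, the gene of interferon-beta, had 8 UMIs in 5 cells of library 2 and 57 UMIs in 21 cells of library 1. Of the type III interferon receptor, the chain Ifnlr1 had 4 UMIs in library 2 and 2 in library 1. The other chain, Il10rb, which the interleukin-10 receptor shares, stood at 235 and 193 CPM.

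Cells were then clustered without these 9 genes and without all listed pathway genes. At resolution 1 all of the microglia-like class of library 2 lay in clusters 13 to 17. Most of that of library 1 lay in clusters 1 to 5, which held no cell of library 2. Clusters 13 to 17 also held some cells of library 1, most of them in the dividing cluster 16, with 133 cells of library 2 and 24 of library 1. A cluster held mostly by 1 library may be that library and not a state of the cells. In clusters 13 to 17 the highest folds included C4b and H2-Aa (cluster 13), Apoc1, Saa3 and Lgals3 (14), C4b and H2-Eb1 (15), Mki67 and Top2a of dividing cells (16) and Cxcl9, Acod1 and Cxcl10 (17). In clusters 1 to 5 they included P2ry12, Gpr34 and Hspa1b (cluster 1), Gadd45b, Il1a and Cxcl2 (2), Dnajb1, Hspa1a and Jund (3), Gdf15, Ccl4 and Atf3 (4) and Hspa1a, Fcrls and Cst3 (5).

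Within library 2, Socs1 peaked in cluster 17, led by the chemokine gene Cxcl9. It stood there at 146 CPM (129 to 163), against 67.2 CPM in cluster 13, 65.4 in cluster 16, 51.1 in cluster 14 and 46.4 in cluster 15. The highest over the lowest was 3.14 (2.57 to 3.84). The intervals of clusters 13 and 16, of 16 and 14 and of 14 and 15 overlapped. In library 1 the microglia-like clusters lay between 20.8 and 32.4 CPM, below the level of every one of library 2. The intervals of cluster 3 (24.8 to 41.5 CPM) and cluster 15 (39.4 to 54.3 CPM) overlapped. The interferon target lists summed to 31795 CPM in cluster 17 and to between 21696 and 22904 CPM in the other microglia-like clusters of library 2.

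Among the microglia-like clusters of library 2, cluster 17 was also the highest in Socs3 and the lowest in Ifngr1. Socs3 stood there at 1314 CPM, against 1006 CPM in cluster 13, 653 in cluster 16, 584 in cluster 15 and 535 in cluster 14. Immediate early genes were highest in cluster 13, at 38051 CPM, and stood at 26510 CPM in cluster 17. Ifngr1 had another order, at 375 CPM in cluster 17 and 419 in cluster 16, against 540 in cluster 14, 636 in cluster 13 and 729 in cluster 15. The Ifngr1 intervals of clusters 17 and 16 overlapped. The highest over the lowest Ifngr1 level was 1.94 (1.79 to 2.11). The 7 microglia markers ran in the same order for the extremes, from 6609 CPM in cluster 17 to 11410 CPM in cluster 15, and their part in the Ifngr1 order was not tested.

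In library 1 the extremes of several genes met in clusters 1 and 2. Cluster 2, led by Gadd45b and Il1a, had the most Socs3 of any cluster, at 1705 CPM, and the most Jak1 among microglia-like clusters of either library, at 240 CPM. Jak1 was between 156 and 190 CPM in the other microglia-like clusters of library 1, and between 92.0 and 104 CPM in those of library 2. Among the microglia-like clusters of library 1, cluster 2 also had the lowest Ifngr1, at 560.5 CPM, and the lowest Ifngr2, at 157 CPM. Cluster 1, with the homeostatic markers P2ry12 and Gpr34 and heat shock genes among its 10 highest folds, had the highest Ifngr1 of all, at 922 CPM, and the highest Ifngr2 of library 1, at 214 CPM. Socs3 there was 733 CPM, close to 711 CPM in cluster 5 and below 1321 and 1490 CPM in clusters 4 and 3. Immediate early genes summed to 54511 CPM in cluster 1 and 71056 CPM in cluster 5, and to 83965, 89907 and 79670 CPM in clusters 4, 3 and 2, and their part in the Socs3 order was not tested.

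The remaining genes varied less across microglia-like clusters or had few UMIs. Ifnar1 levels lay between 57.9 and 74.3 CPM in library 2 and between 29.8 and 45.7 CPM in library 1. The intervals of the nearest clusters overlapped, at 47.6 to 69.9 CPM in cluster 16 and 41.0 to 50.8 CPM in cluster 2. Tyk2 lay between 36.7 and 49.9 CPM in library 2 and between 18.5 and 22.7 CPM in library 1. Ifngr2 lay between 246 and 285 CPM in library 2, above the levels of library 1, but the intervals of clusters 16 and 1 overlapped. The ranges of Ifnar2 levels overlapped, at 145 to 170 CPM in library 2 and 159 to 194 CPM in library 1. Jak2 overlapped too, at 14.6 to 21.4 CPM in library 2 and 16.7 to 31.1 CPM in library 1, where cluster 2 was the highest.

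**Figure D4:**
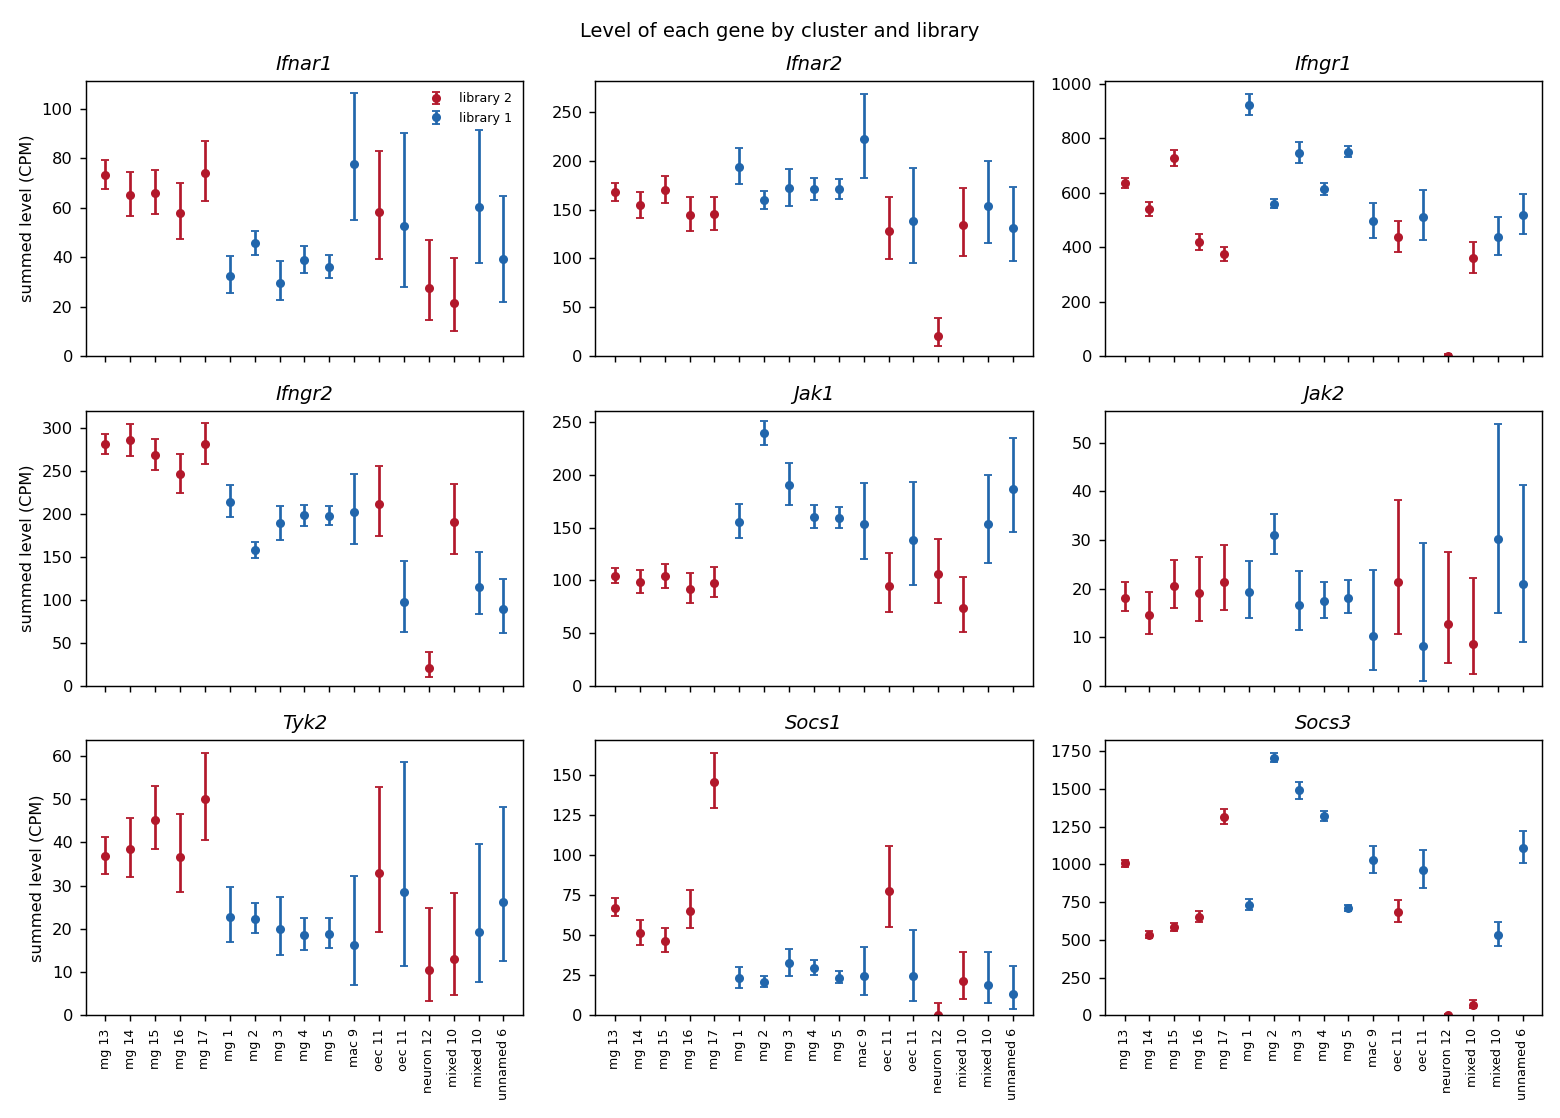
Summed level (CPM) of each gene by cluster and library, for clusters of at least 30 cells in a library, with exact Poisson 95% intervals; mg is microglia-like, mac border macrophage-like, oec olfactory ensheathing-like and neuron sensory neuron-like. Cluster 17 stands out in Socs1 at 146 CPM, cluster 2 in Socs3 at 1705 CPM, and the sensory neurons keep Jak1 at 106 CPM with Ifngr1 at 0.

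Sensory neuron-like cells, led by the olfactory genes Omp and Stoml3, had a different set of these genes. The 37 such cells of library 2 had 0 Ifngr1 UMIs of 472400, where 3 UMIs would make 6.35 CPM. Microglia-like cells of library 2 had 586 CPM. The sensory neuron-like cells also had 0 Socs1 UMIs and 1 Socs3 UMI. Jak1 was present at 106 CPM (78.6 to 140), a level that overlapped the 101 CPM (96.8 to 106) of microglia-like cells. Ifngr2 had 10 UMIs (21.2 CPM), Ifnar2 had the same number, and Ifnar1 had 13 UMIs (27.5 CPM). The 7 microglia markers summed to 42.3 CPM in these cells and to 8973 CPM in microglia-like cells.

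Border macrophage-like cells, 52 cells found in library 1, had more of the type I chains than microglia-like cells of that library. Ifnar1 stood there at 77.6 CPM (54.9 to 107) and Ifnar2 at 223 CPM (183 to 269), against 38.9 and 169 CPM in microglia-like cells of library 1. The Ifnar1 level rests on 38 UMIs, and its interval holds the 69.1 CPM of microglia-like cells of library 2. Microglia markers summed to 7587 CPM and interferon targets to 7422 CPM in this cluster. In microglia-like cells of library 1 these sums were 14647 and 2092 CPM, and their part in the type I chains was not tested. Socs1 and Ifngr2 of the border macrophage-like cells overlapped those of microglia-like cells of library 1, at 24.5 and 202 CPM, and Ifngr1 was lower at 496 CPM. The olfactory ensheathing-like cluster, named after the glia that wrap olfactory axons, had Socs1 at 77.6 CPM in library 2 and 24.4 CPM in library 1. These levels overlapped those of microglia-like cells, at 68.9 and 24.6 CPM. Microglia markers summed to 6160 and 10142 CPM in the ensheathing-like cluster, against 8973 and 14647 CPM in microglia-like cells. How much of the cluster's Socs1 belongs to microglial RNA was not tested.

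To see how the genes vary with the interferon response inside a library, cells were ranked by their share of UMIs from the type I and II targets and cut into 4 bins of equal size. The bins are ranges and not cell types. In library 2 the cuts lay at 1.24%, 2.05% and 3.05%, with 67, 104 and 107 cells within 5% of them, and in library 1 at 0.0901%, 0.132% and 0.197%, with 183, 253 and 179 cells. In library 2, Socs1 stood at 49.0, 66.6, 68.8 and 78.1 CPM from the lowest to the highest bin, 1.59-fold higher in the highest (1.35 to 1.88). In library 1 it stood at 24.2, 23.0, 24.3 and 24.5 CPM, a ratio of 1.01 (0.805 to 1.27). Microglia-like cells alone gave ratios of 1.40 in library 2 and 0.915 in library 1. The target shares of library 1 were far lower throughout, and the difference between these ratios was not tested.

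Socs3 was higher with the target share in both libraries. It stood at 617, 789, 863 and 911 CPM over the bins of library 2 and at 969, 1088, 1209 and 1447 CPM over those of library 1, with ratios of 1.48 and 1.49. The median immediate early share in these bins lay between 2.56% and 2.92% in library 2 and between 6.77% and 7.27% in library 1. Within microglia-like cells alone the Socs3 ratio of library 2 was 1.23. The kinases differed less. Tyk2 had a ratio of 1.33 (1.07 to 1.65) in library 2 and 1.08 in library 1, Jak2 had 1.40 and 1.14, and Jak1 had 0.941 and 1.20. In microglia-like cells alone Tyk2 had 1.23 (0.992 to 1.53) and Jak2 had 1.23 (0.895 to 1.71) in library 2, and both intervals hold 1. Ifngr1, Ifngr2, Ifnar1 and Ifnar2 had ratios between 0.996 and 1.17 in library 2 and between 0.927 and 1.06 in library 1. In microglia-like cells alone Ifngr1 was lower in the highest bin, with ratios of 0.857 and 0.876.

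Ranked instead by the immediate early share, the same cells showed the widest range in Socs3. It stood at 323, 694, 928 and 1204 CPM over the bins of library 2, a ratio of 3.73 (3.52 to 3.96). In library 1 it stood at 585, 982, 1214 and 1883 CPM, a ratio of 3.22 (3.098 to 3.34). Microglia-like cells alone gave 2.49 and 2.84. Socs1 followed this share less, with ratios of 1.33 in library 2 and 1.61 in library 1, and 0.925 and 1.35 in microglia-like cells. Ifngr1 had a ratio of 1.37 in library 2 and 0.894 in library 1, and 1.08 (1.02 to 1.14) and 0.804 in microglia-like cells.

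**Figure D5:**
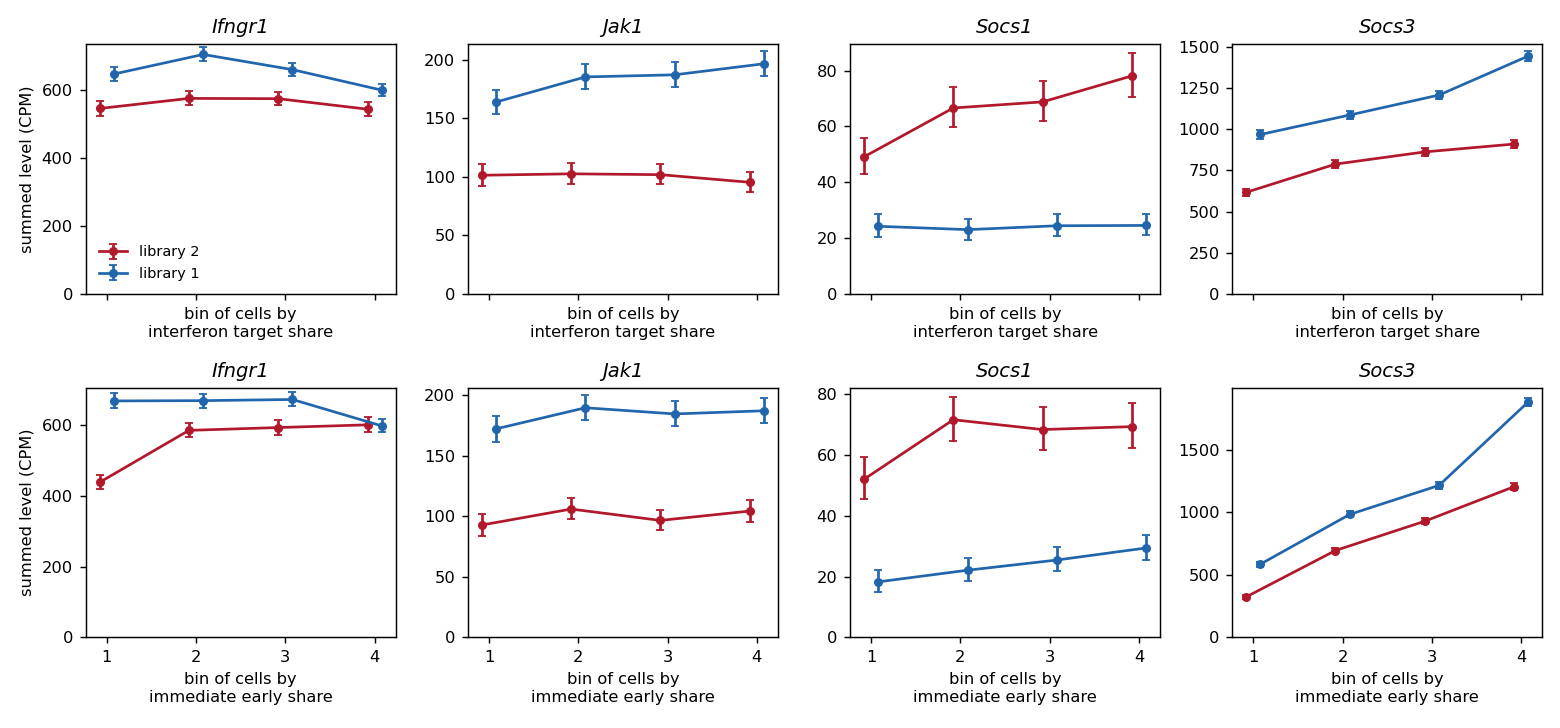
Summed level (CPM) of Ifngr1, Jak1, Socs1 and Socs3 in 4 bins of cells ranked within each library by interferon target share (top) or immediate early share (bottom), with exact Poisson 95% intervals. Socs1 runs from 49.0 to 78.1 CPM with target share in library 2 and stays near 24 CPM in library 1, and Socs3 is higher with each higher bin of the immediate early share in both.

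A receptor needs both chains in 1 cell. After thinning to 3000 UMIs, Ifngr1 and Ifngr2 were found together in 43.1% of library 2 cells (40.8% to 45.4%) and in 34.7% of library 1 cells (33.1% to 36.4%). The products of the single shares were 41.3% and 34.2%, so the chains met about as often as their single shares give. Ifnar1 and Ifnar2 were found together in 6.29% and 4.04%, beside products of 6.92% and 4.21%. All 4 chains occurred in 3.65% of library 2 cells and 1.44% of library 1 cells, beside products of 2.86% and 1.44%. Without thinning the pair shares were 84.8% and 66.6% for type II and 37.1% and 16.9% for type I, so the shares move with depth. In thinned sensory neuron-like cells of library 2, Ifngr1 was found in 0 of 36, Ifngr2 and Ifnar2 in 5 each and Ifnar1 in 2. Jak1 was found in 10 of these 36 cells, Jak2 in 2, Socs3 in 1, and Socs1 and Tyk2 in 0.

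The genes most alike each of the 9 were taken from 7729 genes as those with the highest Pearson correlation of log2(CPM + 1) over 17 cluster-by-library groups, which share libraries and depth. Ifngr1 was most like Csf1r, the receptor that microglia need to live (0.997, and 0.897 without the sensory neurons), then Laptm5. Socs3 was most like Zfp36 (0.981, and 0.939 without the sensory neurons), Plk3 and Ier3, of which Zfp36 and Ier3 are on the immediate early list. Socs1 was most like Sh3bp2 (0.961, and 0.874 without the sensory neurons), Icosl and Slfn8. Jak1, in contrast, was most like Rtn4 (0.958), Slmap and Sde2. Ifnar1 was most like Ddx60 (0.880), and for Jak2 the highest value was 0.817, with Ints8. Among the 9 genes themselves, Ifnar2 with Ifngr1 gave 0.974 and Socs1 with Ifngr2 gave 0.917, whereas Jak1 with Tyk2 gave -0.27. These values include the sensory neurons, which were far below the other groups in Ifnar2, Ifngr1, Ifngr2 and Socs1. They were not taken without that group, so how much rests on it is not known.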

How the data were processed

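Per the labels, tissue around the cribriform plate was dissociated and sorted, and cells of 5 mice per condition were pooled. The authors deposited raw UMI counts per gene and barcode, and per the file headers Cell Ranger 3.1.0 wrote them in matrix format 2. Both bcl2fastq and UMI-tools are named in the submitters' processing notes. No source used here gives the genome build or annotation. Counts were analysed with Python 3.11.15, NumPy 2.4.6, SciPy 1.17.1, pandas 2.3.3, Scanpy 1.11.5, igraph 0.11.9, scikit-learn 1.9.0 and matplotlib 3.10.9.

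The cell filter removed 512 library 2 barcodes and 432 library 1 barcodes. UMIs were summed per library or cluster and divided by the total, with no pseudocount. Intervals are exact Poisson for levels, exact binomial for shares and exact conditional binomial for ratios. They cover counting error only. A gene was called at 1.5-fold with at least 20 UMIs, and beside a 0 stands the level or share that 3 counts would make. The comparison code was run on simulated data with counting error only, in well-counted genes and with changes larger than 1.5-fold. That run does not bear on calls near 1.5-fold, on sparse genes or on differences between pools. Clusters used 2000 variable genes, 30 principal components, 15 neighbours and Leiden resolution 1. A cluster was named by a marker list when 3 or more of that list were in its top 50 genes by fold. With 2 or more such lists it was mixed. With none it was microglia-like if 5 or more of 7 markers reached 100 CPM, and else unnamed. A name was withdrawn when another list had more markers among the 10 highest folds. It was also withdrawn when depth was far below the library median, as in cluster 6 at 0.216 of it. The list of dividing cells names a state and gave no class. This rule was written after a first look at the clusters. Doublets were not called here and may remain.

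The genes, the lists and the comparisons were chosen with earlier results of these data known. Beside the 9 genes, the 2 genes of each list with the highest level and the 2 with the largest ratio could be named, and the 3 most alike each gene. Irf1, Ifng, Ifnlr1, Il2rg, Il15ra, Csf2ra, Csf2rb and the marker and leading genes of clusters are named beyond this rule, with their values known. Promoter windows came from RefSeq, in which all 9 genes matched. The windows of Jak1 and Socs3 reach into another annotation's gene and are not shown. Values of some single genes are not part of this account.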

Additional observations from a re-analysis of the deposited data

How the results depend on the processing

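With 1 pooled library on each side no replicate could be left out. No paired analysis was possible because each condition is 1 pooled library. Over the 10 alternatives the number of the 9 genes at least 1.5-fold higher in library 2 was 3, or 4 with Ifngr2 added, which held with totals without mitochondrial, ribosomal protein and haemoglobin genes and with the mean of per-cell CPM. In the narrow immediate early range Ifngr2 took the place of Ifnar1. The number lower was 2 in place of 1, with Socs3 added, under no filter on cells, scaling to a median log2 ratio of 0, and the mean of per-cell CPM. Of 90 recomputed ratios of single genes, 68 stayed inside their counting interval and 22 left it. For the lists beside the targets, 8 genes were lower, and 2 with a pseudocount of 10 CPM, 5 in the narrow immediate early range and 14 with all genes of at least 1 UMI. Of the immediate early genes, 15 were lower in the wider range of their own share, and 8 lower and 3 higher in the narrow one. In each case the cause was not tested. At resolution 2, Ifngr1 and Socs3 in microglia-like cells of library 1 stood at 654 and 1277 CPM, where some clusters stay unnamed.

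Shares of cells with both chains followed depth. On all UMIs they were 84.8%, 37.1% and 34.5% in library 2 for type II, type I and all 4 chains, and 66.6%, 16.9% and 12.4% in library 1. At 1000 UMIs they were 9.44%, 0.629% and 0% in library 2, where 3 cells would make 0.157%. In library 1 they were 7.77%, 0.663% and 0.0301%. The type I shares at 1000 UMIs rest on 12 cells of library 2 and 22 of library 1. Within microglia-like cells the highest over the lowest target bin was 0.989 for Ifnar2, 0.857 for Ifngr1, 0.996 for Ifngr2 and 1.23 for Socs3 in library 2, and 0.876 for Ifngr1 in library 1.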

Other observations

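Receptors of other cytokines use the same kinases, and their genes differed between the libraries in both directions. Of 23 such receptor genes, 20 had at least 20 UMIs. Of these, 7 were at least 1.5-fold higher in library 2, 6 lower and 7 within, with a median fold of 1.07. Over all genes with that many UMIs, 23.4% were higher and 16.7% lower, and with 20 genes no excess can be read. Il12rb1, a chain of the interleukin-12 receptor, had 426 UMIs in library 2 and 6 in library 1, a ratio of 90.2 (41.1 to 247). Epor went the other way, with 2 UMIs in library 2 and 45 in library 1, a ratio of 0.0565 (0.00663 to 0.216). Il15ra, which presents interleukin-15, stood at 89.7 CPM in library 2 and 9.31 CPM in library 1, and Il2rg, the common gamma chain, at 148 and 28.4 CPM. Of the GM-CSF receptor chains, Csf2ra had 246 CPM in library 2 against 106 CPM in library 1, and Csf2rb had 149 CPM against 40.9 CPM. Csf2rb has a near-identical copy in mice, so its reads may be split or shared. Il6ra, the receptor that SOCS3 is known to restrain through gp130, was lower, at 155 CPM in library 2 and 299 CPM in library 1. Il10ra stood at 289 and 384 CPM, within 1.5-fold.

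Of 13 ligand genes of these receptors, 6 had at least 20 UMIs. Of these, 3 were higher in library 2 and none lower, with a median fold of 1.41. Over all genes with that many UMIs, 23.4% were higher and 16.7% lower, and with 6 genes no excess can be read. Il27, a subunit of interleukin-27, stood at 39.8 CPM in library 2 and 6.09 CPM in library 1, while its partner Ebi3 stood at 23.2 and 33.3 CPM. Il12b, a subunit of interleukin-12, stood at 10.6 and 2.45 CPM, and Osm, a gp130 cytokine, at 220 and 142 CPM.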
